A study of Mus musculus with 2 samples.

Results

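Heat shock proteins and J-domain chaperones formed a set of 74 genes among the 32531 listed for ribosome-bound RNA of the mouse cerebral cortex. The members were taken by name: symbols that begin with Hsp90, Hspa, Hspb, Hspd, Hspe or Hsph (29 genes), and symbols of Dnaja, Dnajb or Dnajc followed by a number (45 genes). The rule itself uses names and no measured value, although the members and lists were chosen with earlier results of these data known. By the place where their proteins are known to work, 46 were put in the cytosolic group, which includes the nucleus and the cytosolic face of membranes. Another 13 were put in the endoplasmic reticulum (ER) and 9 in mitochondria, and 6 were left unplaced because the name alone links them to the set or their place was not certain. The RNA came from adult Gdnf-EGFP/Rpl10a animals (line ES2243), in which an EGFP-tagged ribosomal protein follows the regulatory sequences of Gdnf, and tagged polysomes were pulled from cortex homogenate with antibodies against EGFP. The 2 libraries, IP1 and IP2, were both such purified samples of untreated mice and formed 1 group. The sources used here do not say whether they came from separate or pooled animals, nor give sex, exact age or the build of the transgene, so the spread between them may be technical. The study names pericytes, contractile cells on the wall of capillaries, as the cells profiled.

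Molecular chaperones help other proteins fold, keep unfolded chains from clumping and pass damaged ones on for breakdown. Hsp70 proteins bind and release short stretches of unfolded chain in a cycle driven by ATP, J-domain proteins bring clients to Hsp70 and start that cycle, and exchange factors end it. Hsp90 acts later on clients such as kinases and hormone receptors, and small heat shock proteins hold unfolded chains without ATP. Each compartment has its own Hsp70, and cells under heat or folding stress raise the inducible members through heat shock factor in the cytosol and through the unfolded protein response in the ER.

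The reads counted in genes were 65200231 in IP1 and 72732502 in IP2. Levels are given as counts per 1000000 of these reads (CPM), with no correction for transcript length, so they follow a gene between libraries and do not order different genes by abundance. All 8 pericyte markers checked reached 10 CPM in both libraries, with a sum of 6339 CPM in IP1 and 6170 in IP2. Rgs5 alone held 4841 and 4061 CPM of these sums, so they mostly follow that gene. Neuronal markers were present as well, with 7 genes summing to 16134 and 14155 CPM, as were astrocyte, oligodendrocyte and oligodendrocyte precursor markers. Endothelial markers summed to 20.3 and 24.5 CPM over 5 genes, with Cldn5 at 5 counts in IP1 and 0 in IP2, and microglial markers to 19.0 and 24.1 CPM over 4. The chaperone reads therefore cannot be credited to 1 cell type, and fewer cells of a type cannot be told apart from less RNA per cell. Of the members, 32 overlap another annotated gene on the genome, 15 of them a protein-coding one, and reads matching several genes were not counted.

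Most members were expressed. In both libraries 55 of 74 reached 10 CPM and 65 reached 1 CPM, while 5 had no count in either. Together the members took 0.720% of gene reads in IP1 (exact 95% binomial interval 0.718 to 0.722%) and 0.768% in IP2 (0.766 to 0.770%). The 5 members with the most reads held 44.0% of all member reads and the 10 with the most held 59.8%. The cytosolic group took 0.574% ± 0.011 of gene reads (SD, n = 2), the ER group 0.115% ± 0.024 and the mitochondrial group 0.0535% ± 0.0013. The ER share was 1.34 times as large in IP2 as in IP1, against 1.03 times for the cytosolic and 0.966 times for the mitochondrial share.

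**Figure D1:**
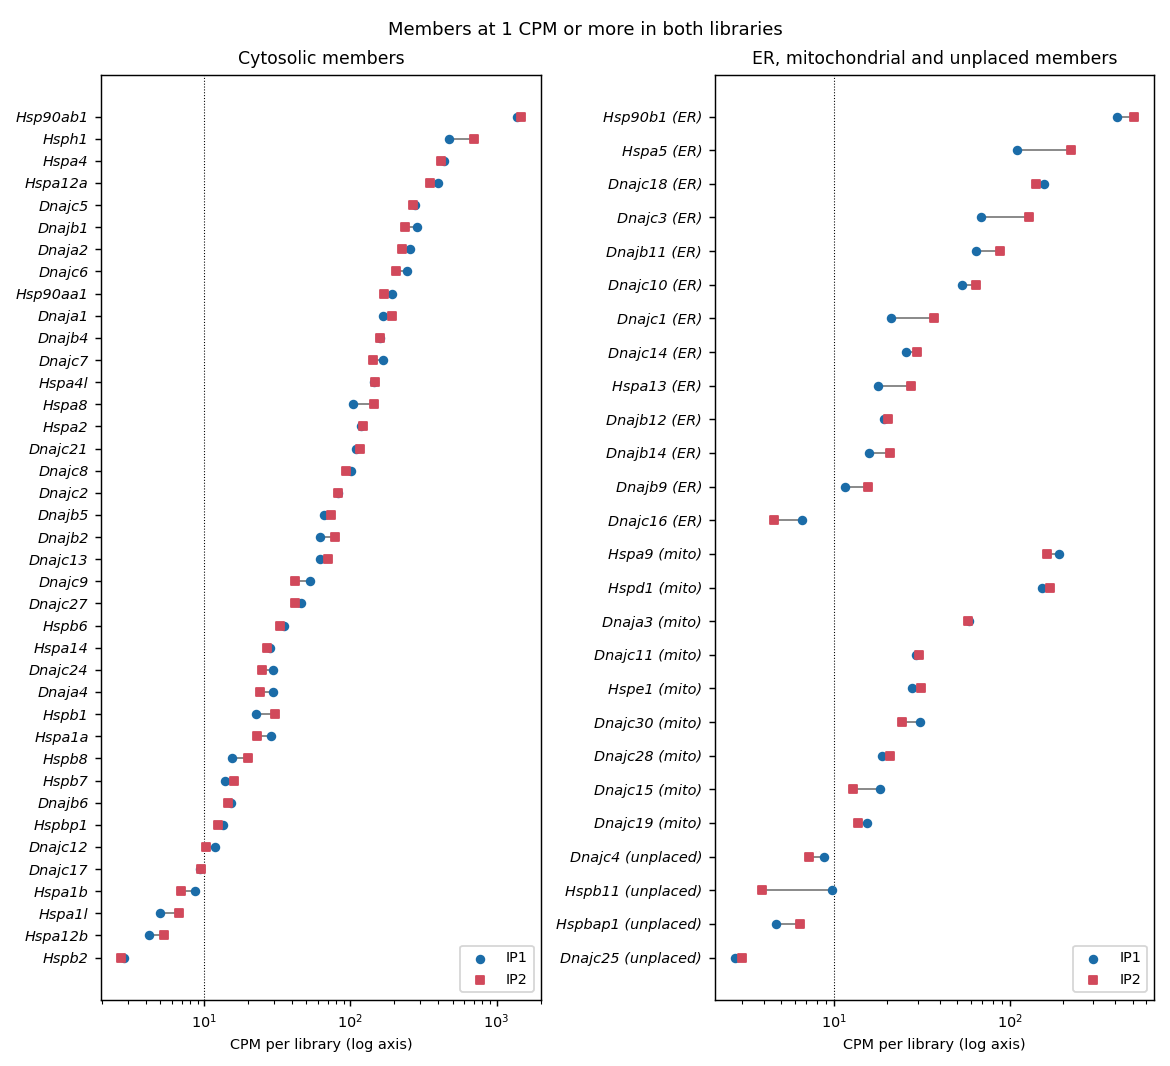
CPM of each member that reached 1 CPM in both libraries, on a log axis, with a blue circle for IP1, a red square for IP2 and a grey line joining them; the dotted line marks 10 CPM. The left panel holds cytosolic members and the right panel those of the ER, mitochondria (mito) and the unplaced group; the wide gaps lie at Hspa5, Dnajc3, Dnajc1 and Hspb11.

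The 2 libraries were compared gene by gene over 17306 genes with 10 or more counts in total, 68 of them members. The other 6 members had fewer counts and were not tested. Reads were set against each other in an exact binomial test, two-sided, with Benjamini-Hochberg adjustment over all 17306 genes, with library sizes scaled by the trimmed mean of M-values (TMM, edgeR). Ratios are IP2 over IP1 after that scaling, given as log2 unless written as a fold, and so can differ slightly from the ratio of the CPM values. It compares the reads of 2 libraries of 1 group and holds counting error only, so it says nothing of a condition. At a threshold of 0.05, 37.5% of all genes tested were higher in IP2 and 38.0% in IP1. Of the members, 34 of 68 were higher in IP2, 20 were higher in IP1 and 14 did not pass.

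In the cytosol, the Hsp90 pair was led in reads by Hsp90ab1, the constitutive form, with 1384 CPM in IP1 and 1468 in IP2. It ranked 31 of all genes by mean CPM and alone gave 19.2% of member reads. Hsp90aa1, the form that heat shock induces, was at 191 CPM in IP1 and 169 in IP2. The constitutive gene was higher in IP2 (log2 ratio 0.14) and the inducible one in IP1 (-0.12), both by less than 1.5-fold.

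Of 8 cytosolic Hsp70 genes, 5 reached 10 CPM in both libraries. Hspa12a, a distant relative of Hsp70 that is abundant in brain, had 397 CPM in IP1 and 348 in IP2. Hspa8, the constitutive Hsc70 that also strips clathrin from vesicles, had 104 CPM in IP1 and 146 in IP2, a log2 ratio of 0.53. Hspa2 was at 118 and 122 CPM, and Hspa14, a partner of the ribosome-bound J-domain protein Dnajc2, at 28.3 and 27.0 CPM. The stress-inducible pair Hspa1a and Hspa1b lies on chromosome 17 (34969359 to 34972156 and 34956429 to 34959238, GRCm38). Hspa1a had 28.4 CPM in IP1 and 22.8 in IP2, and Hspa1b 8.68 and 6.93 CPM, so both were lower in IP2. These are near-identical copies, and reads that aligned to several places (31.2 and 31.5% of the reads in the files) were not assigned, so both are undercounted to an unknown degree. Hspa1l (4.97 and 6.71 CPM), a testis form beside them, and Hspa12b (4.22 and 5.31 CPM), described in endothelium, were under 10 CPM.

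Hsp110 proteins are large relatives of Hsp70 that act as its nucleotide exchange factors. Hsph1, the heat-inducible one, had 470 CPM in IP1 and 703 in IP2. That made it the cytosolic member with the largest ratio among those at a mean of 10 CPM or more, at a log2 ratio of 0.64. Its constitutive relatives Hspa4 (436 and 416 CPM) and Hspa4l (145 and 147 CPM) differed by far less, with log2 ratios of -0.01 and 0.07. Hspbp1, an exchange factor of another fold, was at 13.4 and 12.5 CPM.

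Of 7 small heat shock genes, 4 reached 10 CPM in both libraries. Hspb6, which is found in muscle and blocks actomyosin contraction when phosphorylated, was at 35.3 CPM in IP1 and 33.2 in IP2. Hspb1 (Hsp27), an actin-binding form, was at 22.5 and 30.3 CPM, and Hspb8, a partner of Bag3 in the removal of misfolded proteins, at 15.5 and 19.98 CPM. Hspb7, a form of heart muscle, was at 13.9 and 15.9 CPM. Hspb2 (2.81 and 2.71 CPM) shares its locus with the alpha crystallin gene Cryab, whose 319 and 300 CPM made it the small heat shock gene with the most reads, although its symbol lies outside the set. Hspb9 and Hspb3, forms of testis and muscle, stayed under 1 CPM.

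The J-domain proteins of the cytosol divide into class A and B, which fold general clients, and class C, whose members each serve a special task. Dnaja2 had 256 CPM in IP1 and 227 in IP2, Dnaja1 167 and 193 CPM and Dnaja4 29.6 and 24.2 CPM. Of class B, Dnajb1, the heat-inducible Hsp40, had 286 CPM in IP1 and 238 in IP2. Dnajb4 was at 159 CPM in both libraries, Dnajb5 at 65.7 and 74.0 CPM and Dnajb2, a neuronal form, at 61.6 and 78.0 CPM. Dnajb6, a suppressor of polyglutamine aggregation, was at 15.2 and 14.5 CPM.

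Class C includes chaperones of the synapse. Dnajc5 (cysteine string protein), which keeps the SNARE protein SNAP25 folded on synaptic vesicles, had 277 CPM in IP1 and 268 in IP2. Dnajc6 (auxilin), which recruits Hsc70 to uncoat clathrin vesicles in neurons, had 243 and 205 CPM. Both were within 1.5-fold between the libraries, as were all 11 cytosolic class C genes with a mean of 10 CPM or more. Dnajc7, a partner of Hsp70 and Hsp90, was at 168 and 142 CPM but overlaps the oligodendrocyte gene Cnp. Dnajc21, which acts in ribosome assembly, was at 109 and 116 CPM, and Dnajc13, which works on endosomes, at 61.6 and 70.3 CPM. Dnajc9, a histone chaperone of the nucleus, was at 53.2 and 41.8 CPM, and Dnajc8, found with splicing factors, at 100.4 and 93.0 CPM. Dnajc2, which sits on ribosomes, was at 82.0 and 81.9 CPM, Dnajc27, a Rab-like GTPase, at 46.2 and 41.8 CPM and Dnajc24, which acts in diphthamide synthesis, at 29.6 and 24.7 CPM. Dnajc12, a partner of aromatic amino acid hydroxylases, was at 11.8 and 10.4 CPM, Dnajc17 at 9.40 and 9.46 CPM and the class B gene Dnajb3, which lies inside the Ugt1a locus, at 0.97 and 0.95 CPM. The relatives Dnajc5b and Dnajc5g, the class B genes Dnajb7 and Dnajb8 and the unplaced Dnajc22 had 0 counts in both libraries. A count of 0 allows up to 3 counts, or 0.046 CPM in IP1 and 0.041 in IP2, and this covers counting error only.

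In the ER, 12 of 13 members reached 10 CPM in both libraries, and 11 were higher in IP2 than in IP1. Hsp90b1 (chromosome 10, 86690841 to 86705444), the Hsp90 of the ER known as GRP94, had 405 CPM in IP1 and 513 in IP2. Hspa5 (chromosome 2, 34772090 to 34776529), the ER Hsp70 known as BiP and a classic target of the unfolded protein response, had 110 CPM in IP1 and 223 in IP2. Hspa13, a lesser-known relative of Hsp70 in microsomes, had 17.9 and 27.6 CPM. Every one of the 3 was thus higher in IP2, with Hspa5 at 2.10-fold (exact 95% counting interval 2.05 to 2.16).

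Of the ER J-domain genes, Dnajc3 (chromosome 14, 118937932 to 118981702), which encodes P58IPK, a partner of BiP, had 69.1 CPM in IP1 and 128 in IP2. Dnajc1, whose product crosses the ER membrane and binds BiP and ribosomes, had 21.3 and 37.1 CPM. Dnajb11, a BiP partner for nascent chains, had 64.8 and 88.5 CPM, and Dnajc10, a reductase that helps degrade misfolded proteins, 53.9 and 64.1 CPM. Dnajb9 had 11.6 and 15.7 CPM, Dnajb14 15.8 and 21.1 CPM, Dnajb12 19.3 and 20.3 CPM and Dnajc14 25.9 and 29.9 CPM, all higher in IP2. The exceptions were Dnajc18, a membrane-anchored form at 157 CPM in IP1 and 142 in IP2, and Dnajc16, at 6.58 and 4.61 CPM. Hspa5 overlaps the gene Rabepk (11.1 and 7.26 CPM), Dnajc1 overlaps Mllt10 (85.8 and 83.5 CPM) and Dnajc3 a pseudogene, which leaves part of their reads uncertain.

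Promoter sequence was examined for 2 motifs, in windows from 250 bases before to 50 bases after each annotated gene start (RefSeq, GRCm38.p6). Windows were found for 60 of the 74 members. The ER stress element is bound by factors of the unfolded protein response and was searched on both strands as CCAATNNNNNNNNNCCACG. It was present in windows of 3 members (5.0%), all among the 11 ER members with a window. Among all genes with a window, 0.137% (37 of 27025) had a match. The members were Hspa5, Hsp90b1 (a match on each strand) and Dnajc3, which are shown because all 3 were higher in IP2. They are written 5′ to 3′ on the strand of the gene with the match in capitals, and the windows are chr2:34771840-34772139 on the plus strand, chr10:86705395-86705694 on the minus strand and chr14:118937682-118937981 on the plus strand.
Hspa5: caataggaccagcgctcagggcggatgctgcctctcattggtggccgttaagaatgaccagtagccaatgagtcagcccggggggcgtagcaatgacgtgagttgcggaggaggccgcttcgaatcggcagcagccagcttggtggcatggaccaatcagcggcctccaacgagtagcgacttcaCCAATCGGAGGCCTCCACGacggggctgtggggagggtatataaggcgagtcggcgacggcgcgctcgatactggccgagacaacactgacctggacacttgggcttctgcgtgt
Hsp90b1: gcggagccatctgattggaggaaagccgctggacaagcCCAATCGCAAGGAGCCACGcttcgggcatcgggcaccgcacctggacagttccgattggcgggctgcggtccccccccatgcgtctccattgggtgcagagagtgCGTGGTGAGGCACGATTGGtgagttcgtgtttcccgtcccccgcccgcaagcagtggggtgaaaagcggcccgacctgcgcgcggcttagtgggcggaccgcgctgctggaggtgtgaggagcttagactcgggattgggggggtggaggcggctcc
Dnajc3: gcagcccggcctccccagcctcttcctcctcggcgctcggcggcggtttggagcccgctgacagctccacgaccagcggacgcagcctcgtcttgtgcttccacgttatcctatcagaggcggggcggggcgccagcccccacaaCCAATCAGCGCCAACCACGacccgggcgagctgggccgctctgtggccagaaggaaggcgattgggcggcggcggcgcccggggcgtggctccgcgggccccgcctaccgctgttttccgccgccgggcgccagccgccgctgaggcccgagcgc

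Counted in bases from the gene start, the match began at -65 in Hspa5, at -212 and -107 in Hsp90b1 and at -105 in Dnajc3. Outside the set, 18 tested genes held this motif, with a median log2 ratio of 0.24. Of them 7 were higher in IP2 and 3, Alg12, Xlr3a and Zfp57, in IP1, beside 37.5 and 38.0% of all genes tested. The share towards IP2 was thus near the background and the share towards IP1 below it, from few genes. The 7 were the ER folding genes Calr, Canx, Creld2 and Pdia6, the ubiquitin ligase Syvn1, which clears misfolded ER proteins, and Acacb and Pan2. A match describes these letters and does not show that a factor binds there.

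In mitochondria all 9 members reached 10 CPM in both libraries. Hspa9 (mortalin), the Hsp70 that pulls proteins into the matrix, had 191 CPM in IP1 and 164 in IP2. Hspd1, the chaperonin Hsp60, had 154 and 170 CPM, and Hspe1, its lid Hsp10, 27.7 and 31.5 CPM. Hspd1 and Hspe1 lie head to head on chromosome 1 (55077833 to 55088243 and 55088148 to 55091317), and both were higher in IP2 by a similar ratio, 1.14-fold and 1.18-fold. Many processed pseudogenes of both exist, so reads aligned to several places are a loss of unknown size here too.

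Dnaja3, the matrix J-domain protein of class A, was at 58.8 CPM in IP1 and 58.3 in IP2. Dnajc11, tied to the cristae-forming complex, was at 29.5 and 30.4 CPM. The import motor genes Dnajc15 (18.4 and 12.9 CPM) and Dnajc19 (15.5 and 13.8 CPM) and the gene Dnajc30 (30.9 and 24.5 CPM) had the higher level in IP1, though Dnajc19 did not pass the test. Dnajc28 was at 18.9 and 21.0 CPM.

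The heat shock element was searched as GAANNTTCNNGAA on both strands. It was present in windows of 4 members (6.67%), Hsph1, Hspd1, Hspe1 and Dnajb6, and in 0.662% of all genes with a window (179 of 27025). For both motifs, a member not named had either no window or no exact match within it. That does not show that the gene lacks such an element. Hspd1 and Hspe1 hold the same stretch on opposite strands, where 2 overlapping matches cover 55088059 to 55088076 of chromosome 1. The RefSeq table lists 2 starts for Hspd1. The stretch lies between the inner one, 55087932, and the Hspe1 start at 55088148, and so within the span of Hspd1 counted from its outer start, 55088243, whose window held no match. In Hsph1 the match lay 36 and 15 bases downstream of the 2 starts in the table, 149636336 and 149636315, while the annotated gene reaches further upstream, to 149636498. The window of the inner Hspd1 start, chr1:55087883-55088182 on the minus strand, and that of Hsph1, chr5:149636287-149636586 on the minus strand, are shown because these genes carry the shared stretch and the largest cytosolic ratio, with matches in capitals.
Hspd1: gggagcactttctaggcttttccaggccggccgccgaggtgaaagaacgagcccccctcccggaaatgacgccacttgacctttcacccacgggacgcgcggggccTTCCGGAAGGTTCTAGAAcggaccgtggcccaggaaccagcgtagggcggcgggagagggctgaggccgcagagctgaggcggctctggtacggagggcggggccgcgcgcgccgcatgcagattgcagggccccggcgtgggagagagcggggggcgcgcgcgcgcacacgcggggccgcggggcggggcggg
Hsph1: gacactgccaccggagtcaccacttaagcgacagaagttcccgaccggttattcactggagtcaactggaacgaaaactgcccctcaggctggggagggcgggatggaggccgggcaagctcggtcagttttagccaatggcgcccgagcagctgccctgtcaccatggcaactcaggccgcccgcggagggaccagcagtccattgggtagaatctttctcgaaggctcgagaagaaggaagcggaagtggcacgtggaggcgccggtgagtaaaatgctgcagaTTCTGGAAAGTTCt

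**Figure D2:**
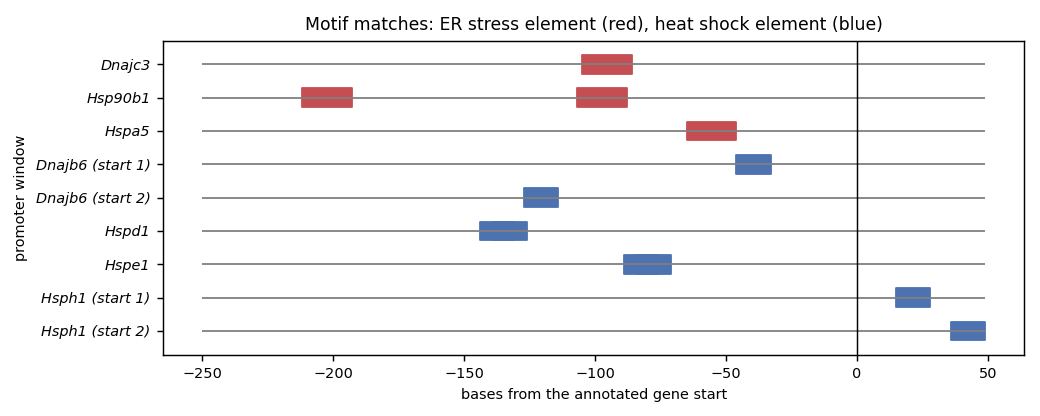
Positions of motif matches in the promoter windows of the members that had one, in bases from the annotated gene start at 0, with the ER stress element in red and the heat shock element in blue; Dnajb6 and Hsph1 are shown at each of 2 starts in the promoter table, and Hspd1 at the inner of its starts. Red boxes lie before the start in Hspa5, Hsp90b1 and Dnajc3, and the blue boxes of Hsph1 lie after the starts shown.

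Genes with the heat shock element had no common direction. Of 71 tested, 31 were higher in IP2 and 30 in IP1, with a median log2 ratio of 0.01, beside 37.5 and 38.0% of all genes tested. Outside the set 67 were tested, of which 28 were higher in IP2 and 30 in IP1, with a median of -0.03. Among the 4 members Hsph1, Hspd1 (0.19) and Hspe1 (0.24) were higher in IP2, and Dnajb6 did not pass (-0.01).

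Of the unplaced members, Hspb11, a part of the intraflagellar transport machinery of cilia in spite of its name, had 9.75 CPM in IP1 and 3.92 in IP2. Dnajc4 had 8.80 and 7.20 CPM, Hspbap1 4.71 and 6.46 CPM and Dnajc25 2.75 and 2.997 CPM. Dnajb13, an axonemal protein, had 4 counts in IP1 and 1 in IP2. None of the 6 reached 10 CPM in both libraries.

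By compartment, in the ER group 11 of 13 passed on the IP2 side and 2, Dnajc18 and Dnajc16, on the IP1 side. The ER median of the log2 ratio (IP2 over IP1) was 0.47, beside -0.0044 over all genes tested, whose interquartile range was -0.34 to 0.33. Of all genes tested, 37.5% passed on the IP2 side and 38.0% on the IP1 side. In the cytosolic group 18 of 42 were higher in IP2 and 13 in IP1, with a median of 0.02. In the mitochondrial group 4 of 9 were higher in IP2 and 3 in IP1, with a median of 0.04. With library sizes taken as the plain total of gene counts, the cytosolic counts became 15 and 17 and the mitochondrial counts 3 and 4, while those of the ER were 10 and 2. That scaling lowers every ratio by about the same amount, moving the median over all genes from -0.0044 to -0.0576, and 33.3% of all genes were then higher in IP2 and 42.6% in IP1. Without the members that overlap another gene, 4 of 6 ER members were higher in IP2 and 2 in IP1. With an assumed coefficient of variation between libraries of 0.1 in the edgeR exact test, 4 ER members passed towards IP2 and 0 towards IP1, beside 14.4 and 14.8% of all genes. With 0.2 no ER member passed, beside 4.59 and 7.09% of all genes.

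Few members passed the test with a ratio of at least 2, a rule met by 17.4% of all genes tested, 7.21% towards IP2 and 10.2% towards IP1. Towards IP2 these were Hspa5 (log2 ratio 1.07), Hspb9 (3.09, from 6 and 59 counts) and Hspb3 (1.32, from 9 and 25 counts). Towards IP1 it was Hspb11 (-1.26, from 636 and 285 counts). Of these 4, Hspa5 alone had a mean of 10 CPM or more. If the libraries are assumed to vary by a coefficient of variation of 0.2, the edgeR exact test no longer called Hspa5 or Hspb3.

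Of the 55 members whose mean was at least 10 CPM, 5 differed by 1.5-fold or more, all towards IP2. Of all 9656 genes at that level, 7.97% were higher in IP2 by this much and 3.40% higher in IP1. The 5 were Hspa5, Dnajc3 (log2 ratio 0.95), Dnajc1 (0.85), Hspa13 (0.68) and Hsph1 (0.64). The first 4 are 4 of the 12 ER members at this level, and Hsph1 is 1 of 34 cytosolic members. The largest ratios the other way were small, at Dnajc15 (-0.46), Dnajc9 (-0.29), Dnajc30 (-0.29) and Hspa1a (-0.26).

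**Figure D3:**
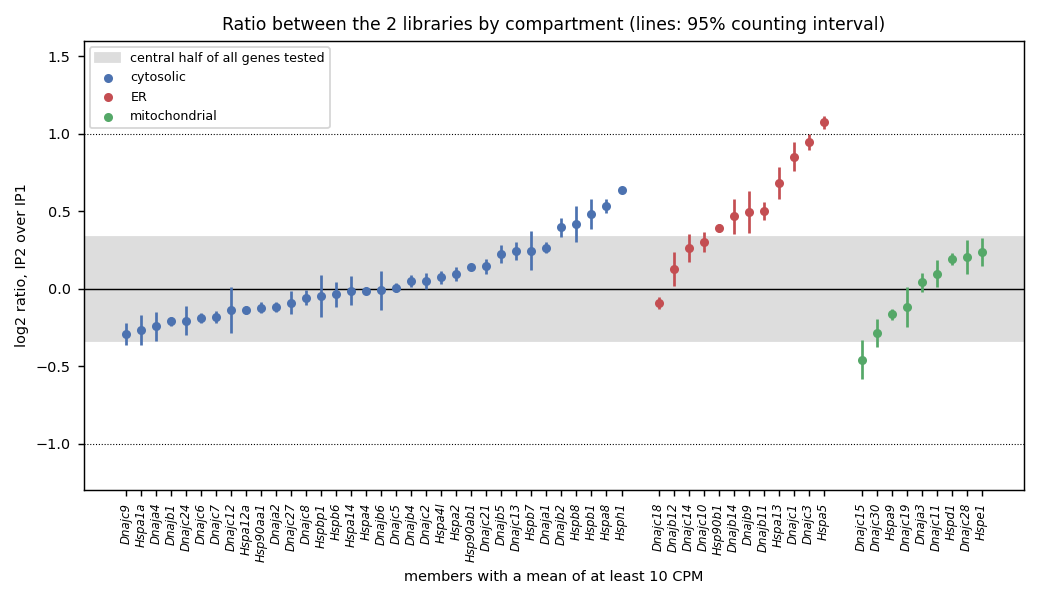
Log2 ratio of IP2 over IP1 for each of the 55 members whose mean reached 10 CPM, ordered within cytosolic (blue), ER (red) and mitochondrial (green) groups; vertical lines are exact 95% counting intervals, the grey band is the interquartile range of all genes tested (-0.34 to 0.33) and dotted lines mark 2-fold. Of the 12 ER members, 11 lie above 0 and Hspa5 lies above the 2-fold line, while cytosolic and mitochondrial members lie on both sides of 0.

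Some cytosolic genes known to be induced by heat, picked by hand with their values known, are set side by side here and were not tested as a group. The balance of directions among them depends on this choice. Hsph1, Dnaja1 (log2 ratio 0.26) and Hspb1 (0.48) were higher in IP2, whereas Dnajb1 (-0.21), Hspa1a, Hspa1b (-0.27) and Hsp90aa1 (-0.12) were higher in IP1. Hsf1, the transcription factor that induces them, was at 84.4 CPM in IP1 and 83.1 in IP2 and did not pass (log2 ratio 0.03). Outside those picked, the co-chaperone genes Chordc1 (log2 ratio 0.81) and Bag3 (0.53) were higher in IP2. The list of co-chaperones that holds them had 14 genes higher in IP2 and 6 in IP1.

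Other genes of protein folding were read from lists of 73 genes outside the set, chosen with earlier results of these data known. Their counts stand beside 37.5% of all genes tested higher in IP2 and 38.0% in IP1. The lists were not run with an assumed variation between libraries. Of 14 ER folding partners, 13 were higher in IP2 and 0 in IP1, with a median log2 ratio of 0.83. Canx (calnexin), a lectin chaperone of the ER membrane, had 219 CPM in IP1 and 316 in IP2. Sec62, of the translocation channel, had 136 and 181 CPM, and Pdia3, a disulfide isomerase, 94.7 and 179 CPM. The isomerases Pdia4 (12.8 and 35.3 CPM) and Pdia6 (17.2 and 36.5 CPM), the BiP-linked Sdf2l1 (4.74 and 12.4 CPM) and the collagen chaperone Serpinh1 (13.97 and 28.7 CPM) passed with a ratio of at least 2. Sil1, an exchange factor of BiP, did not pass, at 5.83 and 5.87 CPM. Hyou1, of the same list, was higher in IP2, at 29.8 CPM in IP1 and 50.8 in IP2.

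Of 8 genes of the unfolded protein response, 6 were higher in IP2 and 2 in IP1, with a median log2 ratio of 0.50. Xbp1 (66.0 and 91.6 CPM) and Atf6 (71.7 and 100.4 CPM), transcription factors of this response, were higher in IP2. Atf4, a factor of the linked translation arm, was lower there, at 184 CPM in IP1 and 133 in IP2. Trib3, a target of Atf4, had 0.32 CPM in IP1, from 21 counts, and no count in IP2. Ddit3 (14.4 and 20.2 CPM) and Eif2ak3 (9.00 and 12.3 CPM), of the same list, were higher in IP2.

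The chaperonin list held more genes higher in IP1 than in IP2. Of 14 genes of the cytosolic chaperonin TRiC and its partner prefoldin, 10 were higher in IP1 and 1, Cct6a, in IP2 (median log2 ratio -0.18). These differences were small, with all 13 genes at a mean of 10 CPM or more within 1.5-fold. Cct6a had 509 CPM in IP1 and 505 in IP2, and its direction rests on the TMM scaling of library sizes, Cct2 had 228 and 173 CPM and Cct7, which did not pass, 173 and 163 CPM. Of 9 mitochondrial folding partners, 4 were higher in IP1 and 2, Clpx (51.5 and 54.4 CPM) and Lonp1 (28.8 and 30.1 CPM), in IP2. With 38.0% of all genes tested higher in IP1, the share of this list towards IP1 was near the background. Grpel1, an exchange factor of mortalin, was at 29.6 and 20.1 CPM. Its relative Grpel2 was at 18.5 CPM in IP1 and 19.3 in IP2 and did not pass.

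Of 22 co-chaperones of Hsp70 and Hsp90, 14 were higher in IP2 and 6 in IP1 (median log2 ratio 0.16). Bag1 (222 and 237 CPM), St13 (218 and 232 CPM) and Stip1 (199 and 228 CPM) took the most reads. Fkbp5, an Hsp90 partner induced by glucocorticoids, passed with a ratio of at least 2, at 22.1 CPM in IP1 and 47.0 in IP2. Of the heat shock factors, Hsf2 was at 37.3 and 30.1 CPM. Hsf4 (3.11 and 0.66 CPM) and Hsf5 (1.12 and 0.11 CPM) were higher in IP1 with a ratio of at least 2. Of the alpha crystallin pair, Cryab was at 319 and 300 CPM and Cryaa had no count.

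**Figure D4:**
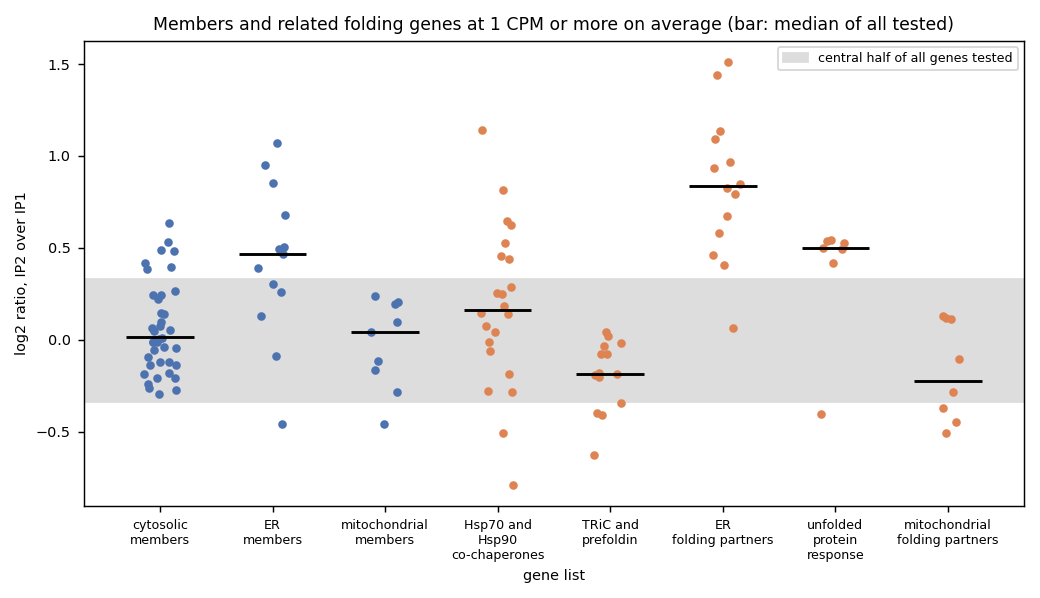
Log2 ratio of IP2 over IP1 for each tested gene whose mean reached 1 CPM in the 3 compartments of the set (blue) and in 5 lists of other folding genes (orange), with a black bar at the median of all tested genes of the list and the grey band at the interquartile range of all genes tested. The medians are 0.47 for ER members, 0.83 for ER folding partners and 0.50 for the unfolded protein response, against -0.18 for TRiC and prefoldin.

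Other genes differed between the libraries along with the ER members. The 5 astrocyte markers summed to 1753 CPM in IP1 and 2756 in IP2, with 4 higher in IP2, Slc1a2 and Aqp4 among them. Of the 8 pericyte markers 6 were higher in IP2 and 2, Rgs5 and Higd1b, in IP1. Their median log2 ratio was 0.62, and 5 of the 8 were higher in IP2 by 1.5-fold or more. The 4 oligodendrocyte precursor markers summed to 1811 and 2106 CPM, with 2 higher in each library. The 4 markers of arterial smooth muscle summed to 643 and 578 CPM, with 3 higher in IP2 and 1 in IP1. The 5 oligodendrocyte markers summed to 2022 and 2157 CPM, with 3 higher in IP2 and 2 in IP1, and of the 7 neuronal markers 3 were higher in IP2 and 4 in IP1. The 10 immediate early genes, which neuronal activity and the handling of tissue can induce, summed to 1273 CPM in IP1 and 563 in IP2, with 9 higher in IP1. Of the endothelial and microglial markers 3 of 5 and 3 of 4 were higher in IP2, with Cldn5 alone at 0, in IP2. The part of any of these in the difference of the ER members was not tested.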

How the data were processed

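Ribosome-bound RNA of 2 libraries was measured by RNA sequencing. Per the submitters' processing notes, the authors aligned reads with STAR 2.0.0e to mm10 and counted them with HTSeq; their gene annotation is not given in the sources used here, and neither is whether counting used strand. The deposited files hold raw counts per gene symbol with no normalization. Summary lines and a row named unknown (1 read in IP1, 0 in IP2) were left out, and reads in genes were 58.1% and 57.7% of those listed. Without a known strand setting, overlapping antisense genes cannot be told apart, and reads are not independent molecules, so intervals and limits cover counting error only.

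CPM used the total of gene counts, and values are mean ± SD or per library. The exact binomial test across genes used TMM sizes from edgeR 4.0.16, and ratios a prior of 0.5 counts. With 1 library on each side, a quasi-likelihood fit leaves no residual degrees of freedom. Alternatives used DESeq2 1.42.0 size factors, with scipy 1.17.1 and pandas 2.3.3 in Python 3.11.15 and R 4.3.3 for the rest. The test was run on simulated Poisson counts with plain totals and no variation between libraries beyond counting error. That check cannot show how the test behaves when libraries vary more. In the real data the chi-square per degree of freedom between the libraries was 91.4, far above counting error alone. Gene places come from RefSeq (GRCm38.p6, the assembly of mm10), which matched all 74 members and may differ from the authors' annotation. Levels per kilobase were not computed, since no exon lengths were used here.

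Named members were the up to 4 with the most reads of each role, those called between libraries, the 4 largest ratios each way at a mean of 10 CPM, those with 0 counts and a set of well-known genes; of other lists, the 3 with the most reads, called genes and Hsf1. Other genes were named after their values were seen. The members and lists were chosen with earlier results of these data known.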

Additional observations from a re-analysis of the deposited data

How the results depend on the processing

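The number of members at 10 CPM in both libraries was 55 with TMM or DESeq2 sizes and 55 without either replicate, and 65 at 1 CPM. Counts of called members moved with the rule: at a ratio of 1.5, 7 members and 4 of the ER group were called higher in IP2, against 3 and 1, while calls towards IP2 over all 17306 genes went from 1247 to 2422. With an assumed coefficient of variation of 0.2 these were 1 and 0 (4.59% of all genes), and without the members that overlap another gene, an alternative chosen after seeing the data, also 1 and 0, since Hspa5 and Hspb3 are among those left out. At an assumed 0.1 they were 2 and 1 (6.83%). Members past the adjusted p alone were 34 higher in IP2 and 20 in IP1, 29 and 25 with plain totals (33.3 and 42.6% of all genes), 7 and 1 at an assumed 0.1 (14.4 and 14.8%) and 1 and 1 at 0.2 (4.59 and 7.09%). Called members towards IP1 stayed at 1 throughout the alternatives run. Without Rn45s in the total, the cytosolic share was 0.596% and the mitochondrial share 0.0556%. Leaving out each replicate in turn gave 0.565 to 0.582% for the cytosolic, 0.0978 to 0.131% for the ER and 0.0526 to 0.0544% for the mitochondrial share. With plain totals the log2 ratio of Dnajb4 turned to -0.0059, that of Dnajc5 to -0.046 and that of Dnaja3 to -0.0126. Of 336 ratios of 51 named members, 326 kept their direction and call. That number carries little weight, because most named members were not called to begin with and several alternatives leave the ratio itself unchanged. A kept call also did not require that a member still passed the adjusted p. The call was lost by 3 (Hspa5 at 0.2, Hspb3 at 0.1 and 0.2). It was gained by 4 at a ratio of 1.5 (Dnajc1, Dnajc3, Hspa13 and Hsph1). Plain totals moved the median of all genes to -0.058. Levels per kilobase of exon were not run. No paired analysis was possible because the libraries form 1 group. With 2 libraries, no spread can be estimated for a ratio.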
